A study of Mus musculus with 12 samples.

Results

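The change of the first day sampled, from embryonic day 9.5 to embryonic day 10.5 (E9.5 and E10.5), was compared between muscle progenitors of the head and of the trunk of the mouse embryo. The comparison is a difference of differences: the head change, E10.5 minus E9.5, minus the trunk change, computed for each gene on log2 signal. A positive value means that the head change lay above the trunk change, and a negative value that it lay below it. Groups were taken from the sample titles, and 8 of the series' 12 arrays enter the comparison. They are 2 arrays of head at E10.5, 2 of head at E9.5, 2 of trunk at E10.5 and 2 of trunk at E9.5; the other 4, of head and trunk at E11.5, served to estimate the spread and nothing else. All embryos were of the ICR strain and carried Myf5Cre and RosaYFP, so no group lacks the Cre or the reporter. Cre made under the control of Myf5 switches on yellow fluorescent protein (YFP) for good, so a YFP sort collects cells in which Myf5 has been active and their descendants, whatever those cells have become since. Head and trunk tissue was dissociated, YFP-positive cells were collected by flow cytometry, and their amplified RNA was hybridised to 1 Affymetrix array per sample. The labels do not say how many embryos or litters stand behind an array, so the p-values below measure only the spread between these arrays, which may be technical.

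Skeletal muscle of the trunk and limbs comes from the somites, blocks of segmented mesoderm in which Pax3 and Myf5 act upstream of muscle formation. Muscle of the jaw, face and pharynx comes from unsegmented pharyngeal mesoderm, where Tbx1, Isl1, Tcf21, Msc and Lhx2 act in place of Pax3. In both regions Myf5 and Myod1 commit cells to muscle, and Myog then drives the switch to fusing fibres that build sarcomeres.

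The 8 arrays had median signals of 109 to 110.4 intensity units, the linear unit of the deposited values, and Pearson r between the 2 arrays of a group, on log2 signal, lay between 0.947 for the head pair at E10.5 and 0.965 for the trunk pair at E10.5. These r run over probe sets, which are not independent replicates, and groups were not apart by them: replicate 2 of head at E10.5 and replicate 2 of head at E9.5 reached 0.962. Replicate 1 of both E10.5 groups stood apart in Xist, the RNA that coats the inactive X chromosome, with signals of 163 and 5006 in head at E10.5, 6879.8 and 3789.9 in head at E9.5, 82.6 and 4132 in trunk at E10.5 and 5833 and 6329 in trunk at E9.5. Results are therefore also given without both of those arrays. Myf5 had a signal above the median probe set on all 8 arrays, with a lowest value of 525. The sort itself selects on Myf5, so this is no separate test of the label of muscle progenitors. Myod1 and Myog lay below the median probe set in head at E9.5 and above it in both regions at E10.5. The region labels were checked on position genes at E9.5. Of 13 pharyngeal mesoderm regulators tested, 10 were higher in head. Head was below trunk for 8 of 10 posterior Hox genes tested (paralog groups 5 to 13). Of all 7722 genes, limma called 457 at E9.5 (5.92%) and 349 at E10.5 (4.52%). The array held 16 and 22 genes of these lists, and genes dim on nearly all arrays were filtered out. The shares are therefore no measure of the lists. The filter did not use the region, so only the directions bear on the labels.

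The head and trunk changes differed at an adjusted p under 0.05 (limma, Benjamini-Hochberg over all genes) for 30 of the 7722 genes tested, which is 0.389%. Of these 30, called below, the head change lay above the trunk change for 4 (0.0518% of genes tested): Myf5, Fap, Hoxd1 and Pcolce2. It lay below the trunk change for the other 26 (0.337%), with a median log2 value of -2.54 over them. Over all genes the median was -0.03, with quartiles of -0.35 and 0.28 and a median standard error of 0.35, and 916 genes had an unadjusted p under 0.05. The 4 head changes of each called gene, every E10.5 array minus every E9.5 array, all lay on 1 side of its 4 trunk changes, which holds for 26.8% of the genes tested.

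**Figure D1:**
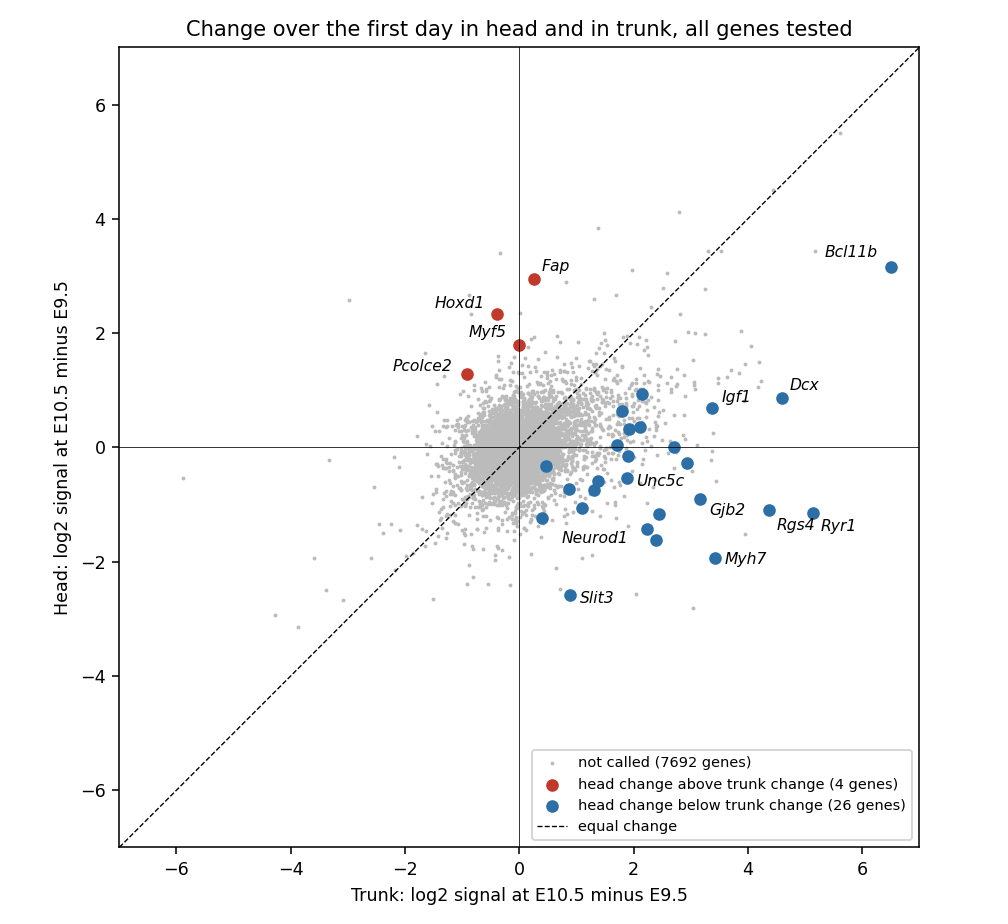
Log2 change from E9.5 to E10.5 in head (vertical axis) against the log2 change in trunk (horizontal axis), 1 point per gene tested, with the dashed line at equal changes. The 4 red points are genes whose head change lay above the trunk change, the 26 blue points lie below, mostly to the right of 0, and 7692 grey points were not called.

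The trunk moved more than the head in 24 of the 26 genes with a negative value, and the head moved more in all 4 with a positive one. Each of those 4 rose in head by the test of the head change, which called 54 rising and 20 falling genes (0.699% and 0.259%), and none passed in trunk. In 21 of the 26, the trunk rose by the test of the trunk change, which called 422 rising and 134 falling genes (5.46% and 1.74%, together 7.2%), while the head change did not pass. In Bcl11b and Oxct1 both regions rose, in Tuba4a and Slit3 the head fell and the trunk change did not pass, and in Neurod1 the head fell and the trunk rose. The trunk pair at E9.5 was the lowest of the 8 arrays in 21 of the 26 genes (80.8%), against 861 of all 7722 genes (11.1%). At E9.5, 21 of the 26 were higher in head than in trunk (361 of all genes were called so, 4.67%) and 5 did not pass. At E10.5, 3 of the 21 still were higher in head (189 of all genes, 2.45%) and 18 did not pass. The 5 genes that did not pass at E9.5 were lower in head at E10.5 (160 of all genes, 2.07%). The gap between head and trunk was smaller at E10.5 than at E9.5 in 23 of the 30 genes and larger in 7. These comparisons share arrays, so they describe 1 pattern rather than support each other. The genes were also picked on a contrast of these same arrays. A negative value favours a low trunk pair and a higher head signal at E9.5. The shares over all genes are therefore no test of the pattern.

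Many calls depended on single arrays. With each of the 8 arrays left out in turn, 7 genes passed in every fit: Rgs4, Neurod1, Stk26, Igf1, Unc5c, Fap and Dcx. Of the 30 genes, 9 passed without head E10.5 replicate 1, 19 without head E10.5 replicate 2, 13 without head E9.5 replicate 1, 11 without head E9.5 replicate 2, 7 without trunk E10.5 replicate 1, 9 without trunk E10.5 replicate 2, 12 without trunk E9.5 replicate 1 and 29 without trunk E9.5 replicate 2. Without both E10.5 replicate 1 arrays limma called 0 genes, with 416 at an unadjusted p under 0.05, and each E10.5 group was then 1 array, assumed to vary like the other groups. None of the 30 values changed sign in any of the alternatives run. Of the 30 genes, 13 kept more than 1 probe set after filtering, and in Amot these had opposite signs. Among the 7 genes, in a fit over all probe sets kept, the other probe set gave -2.50 (adjusted p = 0.136) for Rgs4, -2.27 (adjusted p = 0.184) for Neurod1, -0.91 (adjusted p = 0.415) for Stk26, -2.13 (adjusted p = 0.0513) for Unc5c and -2.47 (adjusted p = 0.46) for Dcx, so none of these 5 passed, although all were negative. The 2 other probe sets of Igf1 gave -3.15 (adjusted p = 0.00692) and -1.88 (adjusted p = 0.156), and Fap had 1 probe set.

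**Figure D2:**
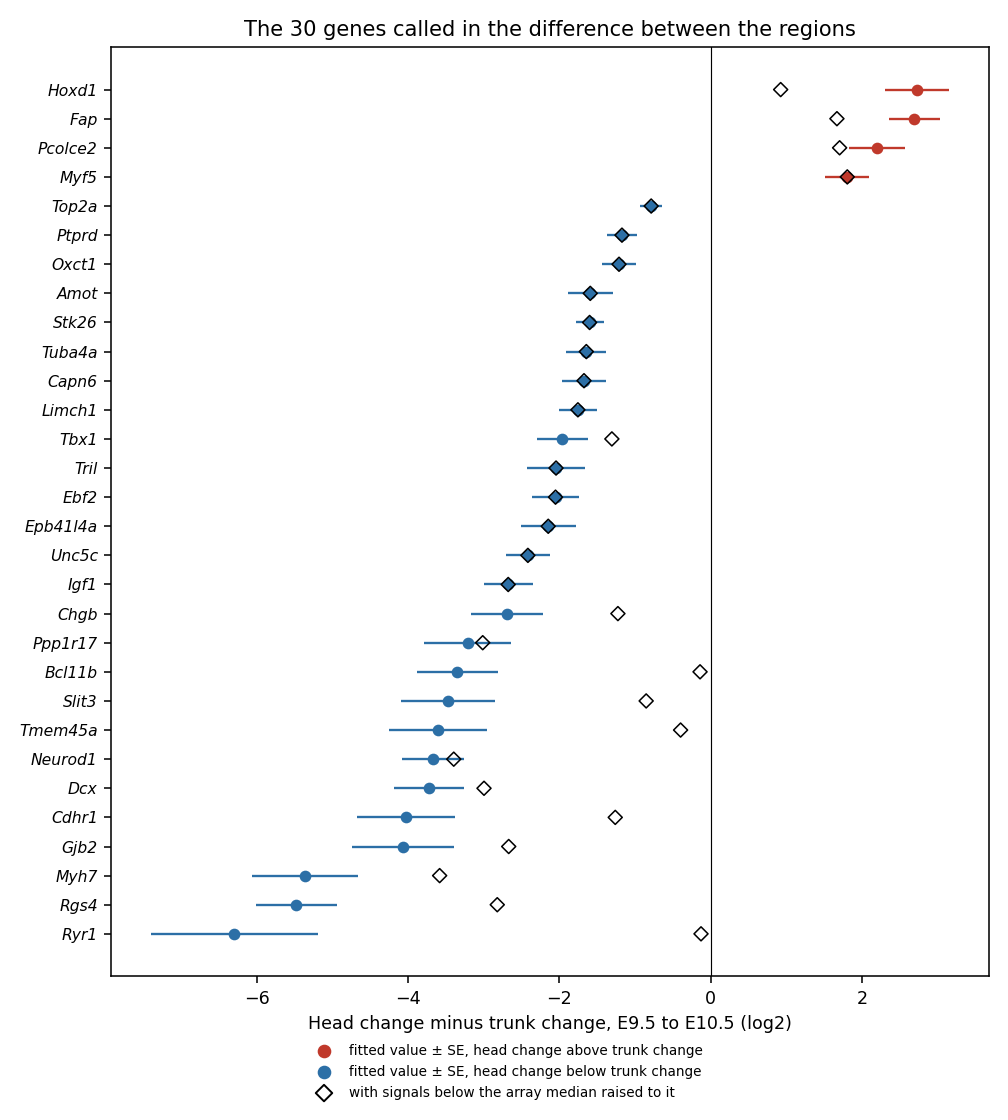
Head change minus trunk change (log2, horizontal axis) for the 30 called genes, as the fitted value with its standard error (filled points and bars) and as the value with every signal below the array's median probe set raised to that median (open diamonds). Values of 4 genes are positive and 26 negative; the diamonds of Bcl11b, Ryr1 and Tmem45a lie close to 0.

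Of the 30, 14 had all 8 arrays at or above the array's median probe set and have a measured fold. For 11 others the dim arrays lie where they make a floored value conservative, so "at least" marks their folds, computed with dim signals raised to the median. Bcl11b, Cdhr1, Ryr1, Slit3 and Tmem45a have no fold, since dim arrays there also lie where a floored value would not be conservative, and only their fitted log2 values are given. In bulk RNA of sorted cells, fewer cells of a type and less RNA per cell cannot be told apart.

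MYF5 and NEUROD1 are basic helix-loop-helix proteins, a class that binds the E-box, CANNTG with N for any base, a motif that reads as an E-box on either strand. The start-site windows of 3 called genes are shown as examples of 3 of the 5 shapes described: Myf5 rose in head and did not pass in trunk, Igf1 rose in trunk and did not pass in head, and Neurod1 fell in head and rose in trunk. The windows run from 250 bases before to 50 after the start (RefSeq, GRCm38.p6), 5′ to 3′ on the gene's strand, with the E-box in capitals: Myf5 at chr10:107486085-107486384 on the minus strand, Neurod1 at chr2:79456587-79456886 on the minus strand and Igf1 at chr10:87860861-87861160 on the plus strand.
Myf5: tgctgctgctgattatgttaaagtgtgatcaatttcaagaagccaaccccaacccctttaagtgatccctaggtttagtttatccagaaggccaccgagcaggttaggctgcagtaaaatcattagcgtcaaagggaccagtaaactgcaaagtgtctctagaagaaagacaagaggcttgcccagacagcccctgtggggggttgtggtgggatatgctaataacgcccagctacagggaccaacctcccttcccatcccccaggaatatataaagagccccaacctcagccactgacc
Neurod1: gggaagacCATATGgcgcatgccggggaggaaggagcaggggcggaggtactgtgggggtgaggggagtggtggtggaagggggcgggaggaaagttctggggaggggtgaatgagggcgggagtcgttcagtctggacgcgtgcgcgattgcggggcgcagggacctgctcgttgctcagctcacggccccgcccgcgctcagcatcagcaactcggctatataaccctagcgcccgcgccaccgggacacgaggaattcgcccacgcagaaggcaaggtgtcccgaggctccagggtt
Igf1: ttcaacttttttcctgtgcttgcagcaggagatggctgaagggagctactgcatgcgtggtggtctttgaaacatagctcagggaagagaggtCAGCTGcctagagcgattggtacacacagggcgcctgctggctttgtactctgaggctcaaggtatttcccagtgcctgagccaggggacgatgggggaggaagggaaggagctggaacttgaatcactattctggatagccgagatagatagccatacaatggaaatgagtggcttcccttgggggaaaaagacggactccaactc
Myf5 has 0 E-boxes in this window, Neurod1 has 1 (CATATG, starting 242 bases before the start) and Igf1 has 1 (CAGCTG, starting 157 bases before it). Windows were found for 25 of the 30 called genes, and 21 of their 30 windows (70.0%) hold an E-box, against 62.4% of 8194 windows of genes tested and 72.3% of all 32851 windows. A match is a description of letters and not a binding site.

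Myf5 itself, the determination factor whose Cre marks these cells, parted between the regions over the day. Its signals were 2294 and 2120.3 intensity units in head at E10.5, 525 and 771 in head at E9.5, 1117 and 1150.2 in trunk at E10.5 and 999 and 1305 in trunk at E9.5. Both head arrays at E10.5 were the highest of the 8 and both at E9.5 the lowest, while the trunk pairs overlapped. The head rose by log2 1.79 (adjusted p = 0.00266) and the trunk value was -0.01 (adjusted p = 0.986), which left a difference of 1.80 ± 0.29 (SE from limma, n = 2 arrays per group; adjusted p = 0.0253), or 3.49-fold. Myf5 was thus lower in head at E9.5 (log2 -0.84, adjusted p = 0.0308) and higher in head at E10.5 (0.96, adjusted p = 0.0275). With trunk E10.5 replicate 1 left out, its adjusted p was 0.144. With replicate 1 of both E10.5 groups left out, the difference was 1.73 (adjusted p = 0.373).

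Of the later factors of the cascade, Myod1 and Myog rose in both regions. Myod1, which commits cells to muscle beside Myf5, had signals of 319 and 216 in head at E10.5, 56.9 and 96.5 in head at E9.5, 226 and 334 in trunk at E10.5 and 70.1 and 73.5 in trunk at E9.5. All E10.5 arrays lay above all E9.5 arrays, in both regions alike. Myod1 rose by log2 1.82 in head and 1.94 in trunk (adjusted p = 0.0173 and 0.00291), and their difference was -0.11 ± 0.43 (adjusted p = 0.945). Myog, which starts terminal differentiation, had signals of 335 and 227 in head at E10.5, 40.4 and 25.3 in head at E9.5, 607 and 689.7 in trunk at E10.5 and 112 and 243 in trunk at E9.5. It rose by log2 3.11 in head and 1.97 in trunk (adjusted p = 0.00266 and 0.00671); the difference of 1.14 ± 0.51 did not pass (adjusted p = 0.406) and turned to -0.64 with dim signals raised to the median. Mef2c, a partner of the myogenic factors, rose by 1.87 in trunk (adjusted p = 0.00303) and had 0.72 in head, with a difference of -1.15 ± 0.42 (adjusted p = 0.317). Of 14 myogenic regulatory factors and cofactors listed, 9 were tested, and Myf5 was the 1 called in the difference (0.389% of all genes). Their median was log2 -0.07, near the -0.03 of all genes, and -0.13 with dim signals raised.

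**Figure D3:**
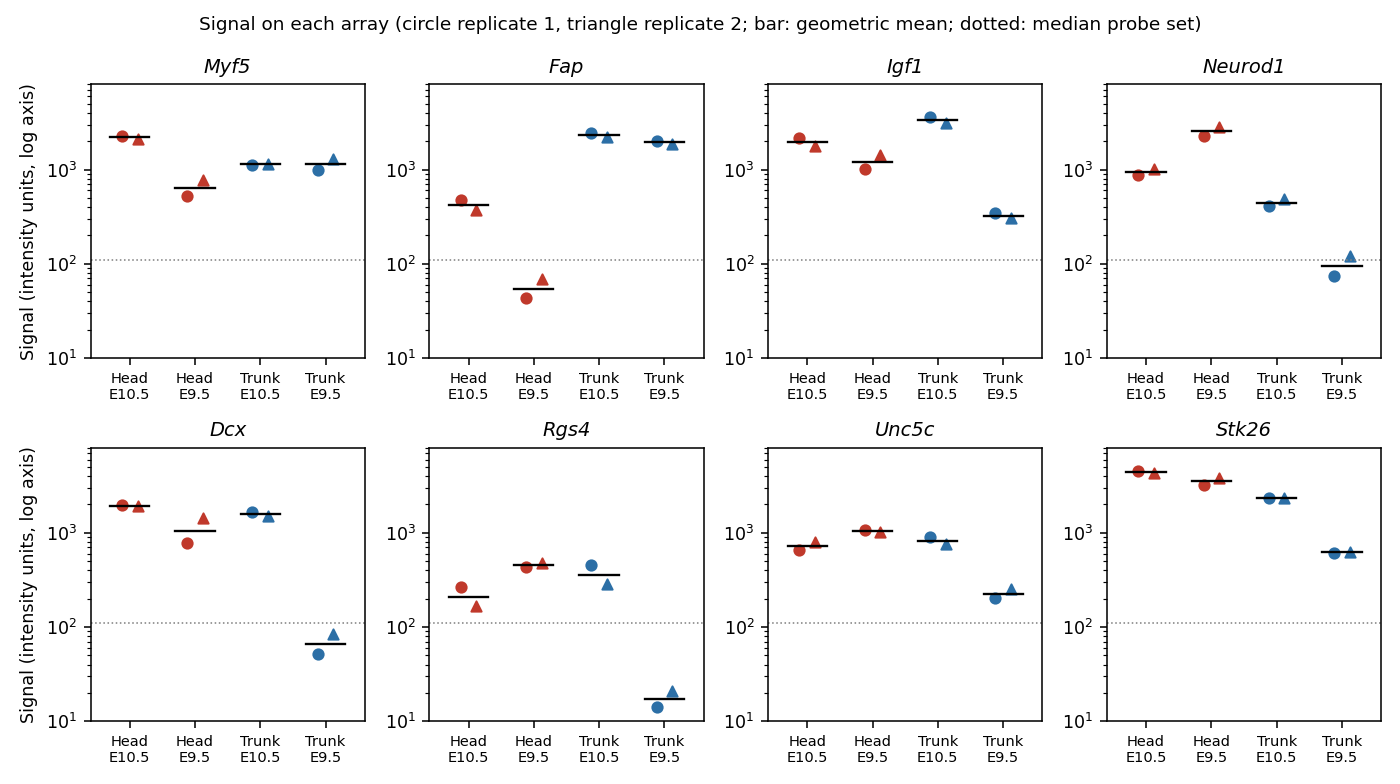
Signal of 8 called genes on each array (log axis, intensity units), with head at E10.5, head at E9.5, trunk at E10.5 and trunk at E9.5 from left to right, replicate 1 as a circle, replicate 2 as a triangle, the geometric mean as a bar and the median probe set as a dotted line. Myf5 and Fap part from the other 6 by a low head pair at E9.5, whereas Igf1, Neurod1, Dcx, Rgs4, Unc5c and Stk26 have their lowest pair in trunk at E9.5.

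Among contractile genes, 16 of the 26 sarcomere and Z-disc genes tested, of 45 listed, rose in trunk and 2, Myh3 and Tnnt1, rose in head by the test of each change (5.46% and 0.699% of all genes), and 1 fell in trunk. In the difference, Myh7 was the 1 called (0.389% of all genes). Myh7, the slow and cardiac myosin heavy chain, had signals of 159 and 76.4 in head at E10.5, 646 and 274 in head at E9.5, 479 and 351 in trunk at E10.5 and 35.9 and 40.8 in trunk at E9.5. Both trunk arrays at E9.5 were the lowest of the 8, below the median probe set, and the head pair at E10.5 lay below the head pair at E9.5. The trunk rose by log2 3.42 (adjusted p = 0.00191) and the head value was -1.93 (adjusted p = 0.0959). The difference was -5.36 ± 0.70 (adjusted p = 0.00644), at least 12-fold, and the adjusted p was 0.0576 without trunk E10.5 replicate 1.

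The other contractile genes of smallest p did not pass in the difference. Actc1, the actin of heart and early skeletal muscle, had signals of 1103 and 2147 in head at E10.5, 1176 and 1321 in head at E9.5, 5595 and 6067 in trunk at E10.5 and 629 and 1953 in trunk at E9.5. The trunk pair at E10.5 was the highest and the head pairs overlapped. It rose by log2 2.39 in trunk (adjusted p = 0.00499), with a difference of -2.09 ± 0.58 (adjusted p = 0.183). Ldb3 of the Z-disc had a difference of -5.85 ± 1.36, Myh8, the perinatal myosin heavy chain, -4.02 ± 0.96, and Actn2, the Z-disc alpha-actinin, -3.43 ± 1.004 (adjusted p = 0.128, 0.139 and 0.22). Most signals of these 3 genes lay below the median probe set. The list's median difference was log2 -1.73, against -0.03 for all genes, but it was -0.55 with dim signals raised, and 0.01 over the 4 genes measured on all arrays. Taken separately, the list's median change was 0.11 in head and 2.35 in trunk.

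Among genes of the muscle membrane, the acetylcholine receptor and calcium handling, Ryr1 was called. Ryr1, the calcium release channel of the sarcoplasmic reticulum, had signals of 5.44 and 3.28 in head at E10.5, 6.20 and 14.3 in head at E9.5, 129 and 93.2 in trunk at E10.5 and 3.05 and 3.19 in trunk at E9.5. The trunk pair at E10.5 stood far above the other 6 arrays, which were all near the bottom of the scale, and 1 of that pair was itself below the median. The difference was -6.29 ± 1.10 (adjusted p = 0.0356), with no fold, since it was -0.13 with dim signals raised, and its adjusted p was 0.278 without trunk E10.5 replicate 1. Of 11 such genes tested, of 31 listed, 5 rose in trunk and 0 in head by limma's test of each change (5.46% and 0.699% of all genes). In the difference 1 was called (0.389% of all genes). Chrna1 and Chrnb1, receptor subunits, rose in trunk by log2 4.18 and 3.96 (adjusted p = 0.0111 and 0.000918) and did not pass in the difference (-3.12 ± 1.18 and -2.50 ± 0.72, adjusted p = 0.328 and 0.212). Over the alternatives run, the differences of Chrna1 and Chrnb1 came as near to 0 as -0.32 and -0.18. Of the 11 genes, 10 had at least 1 array below the median probe set. The list's median difference was -1.0005, and -0.10 with dim signals raised.

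Among regulators of pharyngeal mesoderm, Tbx1 and Ebf2 were called, both with a rise in trunk. Tbx1, a T-box factor needed for pharyngeal muscle, had signals of 787 and 587 in head at E10.5, 975 and 1064 in head at E9.5, 207 and 157 in trunk at E10.5 and 66.1 and 73.1 in trunk at E9.5. Every head array lay above every trunk array, and within trunk both E10.5 arrays lay above both at E9.5. The trunk rose by log2 1.37 (adjusted p = 0.00536), the head value was -0.58 (adjusted p = 0.269), and the difference was -1.96 ± 0.34 (adjusted p = 0.0342), at least 2.47-fold. Ebf2, a helix-loop-helix factor of the EBF family, had signals of 865 and 1136 in head at E10.5, 1894 and 1451 in head at E9.5, 1626 and 1221 in trunk at E10.5 and 641 and 505 in trunk at E9.5. Its head pair was lower at E10.5 than at E9.5 and its trunk pair higher. The trunk rose by 1.31 (adjusted p = 0.00468), the head value was -0.74 (adjusted p = 0.144), and the difference was -2.05 ± 0.31 (adjusted p = 0.0227), 4.14-fold. Without trunk E10.5 replicate 1 the adjusted p was 0.19 for Tbx1 and 0.128 for Ebf2.

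Isl1, a homeobox gene active in heart progenitors and motor neurons, had signals of 5482 and 4702 in head at E10.5, 2875 and 4933 in head at E9.5, 1025 and 934 in trunk at E10.5 and 181 and 154 in trunk at E9.5. Both trunk arrays at E9.5 lay far below the rest, and the head pairs overlapped. It rose by log2 2.55 in trunk (adjusted p = 0.000625), with 0.43 in head, but the difference of -2.12 ± 0.43 missed the threshold (adjusted p = 0.0648). Msc, a basic helix-loop-helix factor of branchial muscle, rose by 2.17 in trunk (adjusted p = 0.00168) and had 1.13 in head (adjusted p = 0.111), with a difference of -1.05 ± 0.44 (adjusted p = 0.371) that was -0.10 with dim signals raised. For Tcf21 and Lhx2, whose trunk arrays all lay below the median probe set, the differences were -1.71 ± 0.95 and -2.42 ± 0.96 (adjusted p = 0.504 and 0.354). In all, 13 of 17 listed pharyngeal regulators were tested. In the difference 2 were called below and 0 above (0.337% and 0.0518% of all genes). By the test of each change, 6 rose in trunk and 0 in head (5.46% and 0.699% of all genes). The median difference was log2 -1.05, with 0.18 in head and 1.31 in trunk, and -0.58 with dim signals raised. Of the cardiac progenitor list, 4 of 11 genes were tested and 0 were called (0.389% of all genes). Their differences were -2.12 for Isl1, which is on both lists, -1.15 for Mef2c, 0.37 for Bop1 and 0.84 for Nkx2-5. The median was -0.39. Bop1 is the symbol of a ribosome biogenesis factor, so this median does not describe cardiac regulators alone.

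Among genes of somites and axial position, Hoxd1 was called. Hoxd1, a Hox gene of an anterior paralog group, had signals of 172 and 147 in head at E10.5, 25.985 and 38.2 in head at E9.5, 349 and 375 in trunk at E10.5 and 393 and 574 in trunk at E9.5. The head pair at E9.5 was the lowest and the trunk pairs the highest. The head rose by log2 2.34 (adjusted p = 0.00435) and the trunk value was -0.39 (adjusted p = 0.487), for a difference of 2.73 ± 0.42 (adjusted p = 0.023), at least 1.9-fold; the adjusted p was 0.128 without trunk E10.5 replicate 1. Among the Hox genes of paralog groups 1 to 4, 8 of 12 listed were tested, Hoxd1 was the 1 called, and the median was log2 0.999, or 0.43 with dim signals raised. For groups 5 to 13, 10 of 27 were tested, 0 were called, and the median of 0.75 turned to -0.11 with dim signals raised. Of all genes 0.389% were called. Each of these 18 Hox genes had at least 1 array below the median probe set.

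Of 14 dermomyotome and limb myoblast regulators tested, of 19 listed, 0 were called in the difference (0.389% of all genes). Their median was 0.78, or 0.12 with dim signals raised. Meox2, a homeobox factor of somite and limb muscle, had signals of 378 and 324 in head at E10.5, 219 and 188 in head at E9.5, 1409 and 1169 in trunk at E10.5 and 2094 and 1899 in trunk at E9.5. Head signals were higher at E10.5 and trunk signals lower, without overlap. The difference of 1.42 ± 0.31 missed the threshold (adjusted p = 0.0872), and its other probe set gave 0.53 (adjusted p = 0.648). Lbx1, a homeobox factor of migrating limb and tongue myoblasts, had signals of 229 and 153 in head at E10.5, 8.43 and 36.8 in head at E9.5, 63.2 and 97.2 in trunk at E10.5 and 149.5 and 65.8 in trunk at E9.5. It rose in head by log2 3.41 (adjusted p = 0.0292), the 1 gene of this list called in head (0.699% of all genes rose in head). Its difference was 3.75 ± 0.88 (adjusted p = 0.132). Pax3, which acts upstream of Myf5 in somites, had 0.97 ± 0.47 (adjusted p = 0.447), and Dmrt2, an early dermomyotome factor, 3.55 ± 0.81 (adjusted p = 0.114). The differences of Lbx1 and Dmrt2 came as low as 0.99 and 0.88 over the alternatives run.

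On the lists of neurogenic factors and neuronal differentiation, Neurod1, Ebf2 and Dcx were called. Neurod1, a basic helix-loop-helix factor of neuron formation, including the cranial ganglia, had signals of 884 and 1004 in head at E10.5, 2287 and 2822 in head at E9.5, 407 and 489 in trunk at E10.5 and 74.2 and 121 in trunk at E9.5. Both head arrays were lower at E10.5 than at E9.5, both trunk arrays were higher, and at either stage every head array lay above every trunk array. The head fell by 1.43 on the log2 scale (adjusted p = 0.0446), the trunk rose by 2.24 (adjusted p = 0.000893), and the difference was -3.67 ± 0.40 (adjusted p = 0.00418), at least 10.5-fold. Dcx, a microtubule protein of migrating young neurons encoded on the X chromosome, had signals of 1957 and 1909 in head at E10.5, 775 and 1444 in head at E9.5, 1678 and 1509 in trunk at E10.5 and 51.2 and 85.024 in trunk at E9.5. The trunk pair at E9.5 was below the median probe set and the other 6 arrays were well above it. The trunk rose by log2 4.59 (adjusted p = 1.81e-05), the head value was 0.87 (adjusted p = 0.231), and the difference was -3.72 ± 0.46 (adjusted p = 0.00418), at least 7.97-fold.

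Rgs4 and Unc5c were called and are on none of the lists. Rgs4, a regulator of G protein signalling, had signals of 265 and 166 in head at E10.5, 429 and 474 in head at E9.5, 454 and 284 in trunk at E10.5 and 14.3 and 20.994 in trunk at E9.5. It was near the bottom of the scale in trunk at E9.5 and above the median probe set on the other 6 arrays. The difference was -5.48 ± 0.53 (adjusted p = 0.00229), at least 7.06-fold, with -1.10 in head and 4.37 in trunk. Unc5c, a netrin receptor of axon guidance, had signals of 659 and 801 in head at E10.5, 1083 and 1024 in head at E9.5, 897 and 766 in trunk at E10.5 and 202 and 251 in trunk at E9.5. Its trunk pair at E9.5 was the lowest and its head pair at E9.5 the highest of the 8. The difference was -2.41 ± 0.29 (adjusted p = 0.00418), 5.33-fold. Without both E10.5 replicate 1 arrays the values were -5.47 for Rgs4, -2.16 for Unc5c, -3.71 for Neurod1 and -3.66 for Dcx (adjusted p = 0.0772, 0.228, 0.153 and 0.228).

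The 7 called genes that follow are on none of the lists either, and each missed the threshold with trunk E10.5 replicate 1 left out. Bcl11b, a zinc finger factor of cortical neurons and T cells, had signals of 411 and 401 in head at E10.5, 38.029 and 54.3 in head at E9.5, 433 and 457 in trunk at E10.5 and 7.92 and 3.03 in trunk at E9.5. It rose in both regions, and the difference of -3.35 ± 0.53 (adjusted p = 0.0253) has no fold, since all 4 E9.5 arrays were below the median and the value was -0.14 with dim signals raised. Ppp1r17, a phosphatase inhibitor of cerebellar Purkinje cells, had signals of 909 and 1468 in head at E10.5, 949 and 2041 in head at E9.5, 1061 and 682 in trunk at E10.5 and 82.3 and 149 in trunk at E9.5, with the trunk pair at E9.5 far below the other groups. Ppp1r17 and Chgb, a granin of secretory granules, had differences of -3.21 ± 0.57 and -2.69 ± 0.47 (adjusted p = 0.0377 and 0.0356), at least 8.06-fold and at least 2.34-fold. Ptprd, a receptor phosphatase of synapses, had -1.17 ± 0.20 (adjusted p = 0.0342), 2.25-fold, but its other probe sets gave -1.37 and -0.12. Slit3, a secreted ligand of Robo receptors, had signals of 24.2 and 15.4 in head at E10.5, 127 and 106 in head at E9.5, 175 and 192 in trunk at E10.5 and 90.1 and 109 in trunk at E9.5. The head pair at E10.5 was the lowest and the trunk pair at E10.5 the highest. Slit3 fell in head by 2.59 on the log2 scale (adjusted p = 0.0194) and had a difference of -3.48 ± 0.62 (adjusted p = 0.0378). Cdhr1, a cadherin-related protein of photoreceptors, had -4.02 ± 0.65 (adjusted p = 0.0253). Tuba4a, an alpha-tubulin, fell in head by 1.24 (adjusted p = 0.0109) with a difference of -1.64 ± 0.26 (adjusted p = 0.0253), although another of its probe sets gave -0.11.

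Of 24 neuronal differentiation genes tested, of 34 listed, 17 rose in trunk and 2 in head (5.46% and 0.699% of all genes), and Dcx was the 1 called in the difference (0.389% of all genes). Nefm, Nefl and Tubb3, neuronal filament and tubulin genes, rose in trunk by log2 3.84, 3.08 and 2.87 (adjusted p = 0.000736, 0.0012 and 0.00932). Their differences were -2.53 ± 0.67, -2.07 ± 0.59 and -2.65 ± 0.78 (adjusted p = 0.169, 0.204 and 0.221). These differences came as near to 0 as -1.73, -1.48 and -0.43 over the alternatives run. The summed signal of the 24 was 21365 and 23744 in head at E10.5, 9632 and 16618 in head at E9.5, 17042 and 16227 in trunk at E10.5 and 5278 and 5789 in trunk at E9.5, so it was lowest in trunk at E9.5, highest in head at E10.5, and differed between the 2 arrays of head at E9.5 more than within any other pair. No listed gene was at 0; the lowest signal was 2.80. The median difference was log2 -1.09, with 1.04 in head and 1.82 in trunk, and -0.27 with dim signals raised. Of 9 neurogenic factors tested, of 22 listed, 2 were called (Neurod1 and Ebf2), beside 0.389% of all genes. The median was -1.61, or -0.05 with dim signals raised. How much a changed share of neurons among the sorted cells contributed to the called values was not tested.

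Igf1, a secreted growth factor that promotes muscle growth, had signals of 2162 and 1762 intensity units in head at E10.5, 1020.3 and 1435 in head at E9.5, 3613 and 3085 in trunk at E10.5 and 347 and 303 in trunk at E9.5. The trunk pair at E10.5 was the highest and the trunk pair at E9.5 the lowest, with all 4 head arrays between them. The trunk rose by log2 3.36 (adjusted p = 1.52e-05), the head value was 0.69 (adjusted p = 0.184), and the difference was -2.67 ± 0.32 (adjusted p = 0.00418), 6.38-fold. All 3 of its probe sets were negative, at -3.15, -2.67 and -1.88, and the value was -2.71 without both E10.5 replicate 1 arrays (adjusted p = 0.153). Of 19 genes of the IGF axis and imprinted growth genes tested, of 22 listed, Igf1 was the 1 called (0.389% of all genes). The median was -0.53, with and without dim signals raised, and 5 rose in trunk and 0 in head (5.46% and 0.699% of all genes). Igf2r, which clears IGF2, had a positive value of 1.10 ± 0.24 (adjusted p = 0.0872), but another of its probe sets gave -0.22.

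Fap, a cell-surface serine protease of mesenchymal cells, had signals of 475 and 369 in head at E10.5, 43.032 and 68.1 in head at E9.5, 2438 and 2211 in trunk at E10.5 and 2031 and 1850.3 in trunk at E9.5. The 2 head arrays at E9.5 were below the median probe set, and the 4 trunk arrays were the highest. The head rose by log2 2.95 (adjusted p = 0.000257), the trunk value was 0.26 (adjusted p = 0.573), and the difference was 2.69 ± 0.33 (adjusted p = 0.00418), at least 3.18-fold; it was 2.58 without both E10.5 replicate 1 arrays (adjusted p = 0.205). Pcolce2, an enhancer of procollagen processing, had signals of 407 and 558 in head at E10.5, 178 and 218 in head at E9.5, 75.2 and 81.2 in trunk at E10.5 and 179.6 and 122 in trunk at E9.5. Head signals were higher at E10.5 and trunk signals lower. The difference was 2.20 ± 0.37 (adjusted p = 0.0329), at least 3.26-fold, and the adjusted p was 0.177 without trunk E10.5 replicate 1. Of 32 genes of connective tissue and extracellular matrix tested, of 37 listed, 15 rose in trunk and 1 in head (5.46% and 0.699% of all genes). In the difference 0 were called (0.389% of all genes), with a median of -0.67, or -0.44 with dim signals raised. Lum, a collagen-binding proteoglycan, missed the threshold at -2.64 ± 0.52 (adjusted p = 0.0614), as did 2 genes of other lists, the transcription factor Prrx1 of limb and face mesenchyme at -1.83 ± 0.39 (adjusted p = 0.0854) and Lama2, the laminin chain of muscle basement membrane, at -2.27 ± 0.44 (adjusted p = 0.0603).

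Stk26, an X-linked kinase of the Ste20 family, had the smallest standard error of the 7 genes that passed in every fit with 1 array left out. Its signals were 4480.0 and 4265 in head at E10.5, 3224 and 3823 in head at E9.5, 2371 and 2325 in trunk at E10.5 and 616 and 628 in trunk at E9.5. All 4 groups were apart, head at E10.5 highest and trunk at E9.5 lowest. The trunk rose by log2 1.92 (adjusted p = 1.52e-05), the head value was 0.32 (adjusted p = 0.273), and the difference was -1.60 ± 0.19 (adjusted p = 0.00418), 3.03-fold. Chromosome X held 4 of the 30 called genes (13.3%), Stk26, Dcx, Capn6 and Amot, all with negative values, against 245 of the 7722 tested (3.17%), whose median was log2 -0.01. The Xist signals given above are the values beside this count, and their part in it was not tested; the count comes from genes already called, and no test was made of it.

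Capn6, a calpain without protease activity that binds microtubules, had signals of 1781 and 1517 in head at E10.5, 1791 and 1439 in head at E9.5, 946 and 757 in trunk at E10.5 and 239 and 281 in trunk at E9.5. Its lowest pair was trunk at E9.5, and the head pairs overlapped. The difference was -1.67 ± 0.29 (adjusted p = 0.0356), 3.19-fold. Amot, which binds the Hippo effector Yap, had signals of 2600.3 and 2801 in head at E10.5, 4702 and 4228 in head at E9.5, 4823 and 4347 in trunk at E10.5 and 1927 and 3273 in trunk at E9.5, lower at E10.5 in head and higher at E10.5 in trunk. Its difference was -1.59 ± 0.30 (adjusted p = 0.0487), but another of its probe sets gave 0.71. Limch1, an actomyosin-binding protein, had signals of 3454 and 2352 in head at E10.5, 1989.8 and 2486 in head at E9.5, 3379 and 3235 in trunk at E10.5 and 755 and 775 in trunk at E9.5. The head pairs overlapped and the trunk pairs did not. Its difference was -1.75 ± 0.26 (adjusted p = 0.0162), 3.37-fold, and that of Oxct1, a mitochondrial enzyme that burns ketone bodies, -1.21 ± 0.22 (adjusted p = 0.0414), 2.31-fold, with a rise of 0.93 in head and 2.14 in trunk. The other probe sets of Oxct1 gave -1.27, -0.95 and -0.002. Gjb2, a connexin of gap junctions, had signals of 87.1 and 81.9 in head at E10.5, 179 and 139 in head at E9.5, 482 and 482 in trunk at E10.5 and 34.6 and 84.5 in trunk at E9.5, so that head was lower and trunk higher at E10.5. Its difference was -4.06 ± 0.68 (adjusted p = 0.0309), at least 6.36-fold. Epb41l4a, of the band 4.1 family, had -2.15 ± 0.36 (adjusted p = 0.0322), Tril, which interacts with Toll-like receptors, -2.04 ± 0.38 (adjusted p = 0.0464) with -0.84 (adjusted p = 0.448) from another probe set, and Tmem45a, a transmembrane protein, -3.61 ± 0.65 (adjusted p = 0.0378). Without trunk E10.5 replicate 1 these 8 genes missed the threshold.

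Top2a, the topoisomerase of dividing cells, had the smallest called value. Its signals were 4258 and 4586 in head at E10.5, 5659 and 5371 in head at E9.5, 6532 and 6889 in trunk at E10.5 and 4481 and 5257 in trunk at E9.5. Head signals were lower at E10.5 and trunk signals higher, and the difference was -0.79 ± 0.15 (adjusted p = 0.0478), 1.72-fold, with an adjusted p of 0.203 without trunk E9.5 replicate 1. Of 35 DNA replication and mitosis genes tested, of 38 listed, Top2a was the 1 called (0.389% of all genes). In trunk 1 rose and 1 fell, against 5.46% and 1.74% of all genes, so these trunk counts do not set the list apart. The median was log2 -0.09, or -0.05 with dim signals raised.

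Lists of other cell types gave 0 calls in the difference. Of all genes 0.389% were called, so 0 is the usual count for lists of this size. The endothelial list, 23 of 28 genes tested, had a median of -0.01, or 0.33 with dim signals raised, and its summed signal was 15564 and 14544 in head at E10.5, 7028 and 11148 in head at E9.5, 4193 and 3638 in trunk at E10.5 and 2255 and 2002 in trunk at E9.5, higher in head at both stages. The macrophage and leukocyte list, 7 of 18 tested, had a median of 1.13, or 0.87 with dim signals raised, and a summed signal of 3422 and 1757 in head at E10.5, 1003 and 906 in head at E9.5, 713 and 735 in trunk at E10.5 and 514 and 445 in trunk at E9.5. The epithelial list, 18 of 25 tested, had a median of 0.14 that turned to -0.22 with dim signals raised, and a summed signal of 7883 and 5612 in head at E10.5, 13282 and 12112 in head at E9.5, 1995 and 3041 in trunk at E10.5 and 6667 and 6262 in trunk at E9.5. Dsp, a desmosome protein, was its gene of smallest p at 1.85 ± 0.37 (adjusted p = 0.0615), with a fall in trunk by 2.54 on the log2 scale (adjusted p = 0.000314). The other probe sets of Dsp gave differences of 1.40 and -0.23. The erythroid, neural progenitor and neural crest lists, with 7, 10 and 17 genes tested, had medians of -0.30, -0.55 and -0.72, or -0.32, -0.29 and -0.12 with dim signals raised. The part of any of these cell types in the called values was not tested.

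Signalling lists held 0 called genes (0.389% of all genes were called), beside a median of -0.03 over all genes: Notch (19 tested, median -0.14), BMP and TGF-beta (19, -0.14), FGF (11, -0.04), Hedgehog (9, -0.02), retinoic acid (9, -0.09) and Wnt (21, -0.33). The same was so for D cyclins and CDK inhibitors (12, -0.12), for laminins, integrins and cadherins of muscle (19, -0.12), for immediate early and heat shock genes (25, -0.14), for glycolysis and hypoxia (21, -0.12), and for sclerotome, tendon and cartilage (13, -0.29). At a share of 0.389%, 0 is the usual count for lists of this size. The forebrain, midbrain and eye list had 5 of 17 genes tested and a median of -0.97, and the 4 X inactivation and Y-linked genes a median of -0.11. With dim signals raised, the Hedgehog median turned to 0.12, and the medians moved to -0.08 for Notch, -0.16 for Wnt, -0.01 for retinoic acid, -0.07 for D cyclins and for immediate early genes, -0.12 for sclerotome and -0.66 for forebrain. These p-values missing the threshold do not show that the changes were equal: with 2 arrays a group the median standard error of a difference was 0.35.

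**Figure D4:**
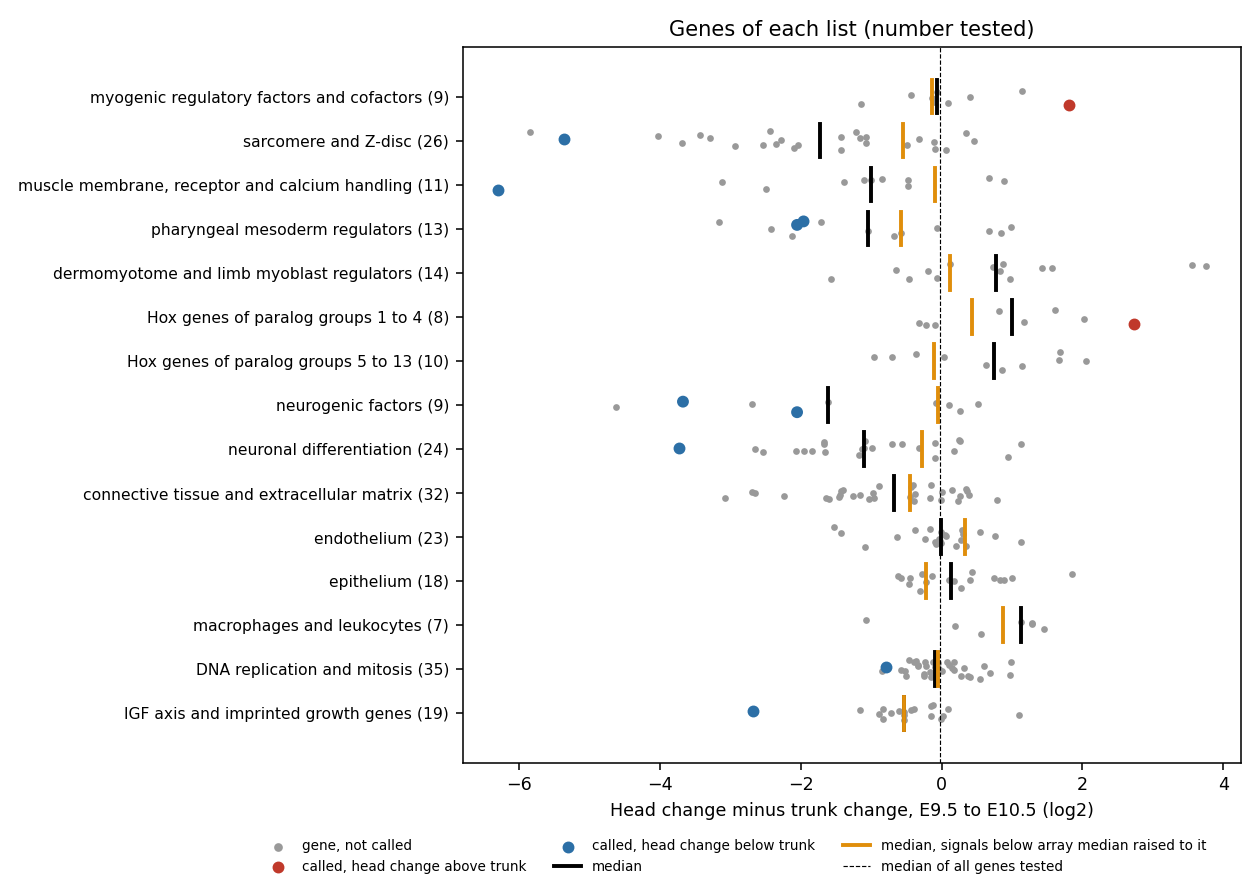
Head change minus trunk change (log2, horizontal axis) of each tested gene of 15 gene lists, with called genes as larger coloured points, the list's median as a black bar, its median with dim signals raised to the array median as an orange bar and the median of all genes tested as a dashed line. The sarcomere median moves from -1.73 to -0.55, the neurogenic median from -1.61 to -0.05 and the median of Hox groups 5 to 13 from 0.75 to -0.11 when dim signals are raised.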

How the data were processed

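Per the labels, total RNA of sorted YFP-positive cells was extracted with QIAzol, amplified with a MessageAmp kit and hybridised as biotinylated cRNA. The deposited values are probe set signals with intensity as unit, on a linear scale, which the authors made with MAS5 and Affymetrix Expression Console, per the submitters' processing notes; whether they normalized further was not given in the sources used here. Percentiles of the signal differed by at most 0.0548 (log2) between arrays, so no further scaling was applied, and log2 of the deposited intensity was taken.

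Of 22690 probe sets, 64 controls, 691 with several genes and 1555 with none were left out; 20380 stood for 1 gene (12393 genes; 20351 matched by Entrez identifier, GRCm38.p6 gene table, 0 symbols changed). Probe sets above the array's median on at least 2 of 12 arrays were kept (11739), and the probe set of highest mean log2 signal stood for its gene, which left 7722 genes (2683 with several probe sets). limma 3.58.1 in R 4.3.3 was fitted to all 12 arrays with 6 group means and empirical Bayes moderation that lets the variance follow mean signal (residual df 6, prior df 5.87). Tests were two-sided, and p-values were adjusted by Benjamini-Hochberg across the 7722 genes, with calls at 0.05. The code was checked on simulated arrays.

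Genes named are the called genes whose 4 head changes do not overlap the 4 trunk changes (up to 10 each way measured on all arrays and 5 each way with a bounded fold), the members of lowest p in each list, up to 5, and Myf5, Myod1, Myog, Mef2c, Tbx1, Isl1, Tcf21, Msc, Lhx2, Pax3 and Xist; the remaining called genes were named after their values were seen. The 32 lists (727 entries, 700 genes, 466 tested) come from textbook knowledge; the comparison, members and lists were chosen with earlier results of these data known. Alternatives covered scaling, filter, pseudocount, floor, trend, arrays used, probe sets and replicate block. Whether the replicate numbers pair head and trunk arrays is not known, and the main fit did not use them as a block.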

Additional observations from a re-analysis of the deposited data

Results flagged for a closer look

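For 30 genes the change from E9.5 to E10.5 differed between the regions by the test of the difference itself (limma, adjusted p under 0.05), and each is given here as the log2 head change minus the log2 trunk change. The head change lay above the trunk change in Hoxd1 (2.73), Fap (2.69), Pcolce2 (2.20) and Myf5 (1.80). It lay below the trunk change, with a rise in trunk and no call in head, in Igf1 (-2.67), Unc5c (-2.41), Epb41l4a (-2.15), Ebf2 (-2.05), Tril (-2.04), Limch1 (-1.75), Capn6 (-1.67), Stk26 (-1.60), Amot (-1.59), Ptprd (-1.17) and Top2a (-0.79), all above the median probe set on the 8 arrays. The same held, with dim arrays that make the fold a bound, in Rgs4 (-5.48), Myh7 (-5.36), Gjb2 (-4.06), Dcx (-3.72), Ppp1r17 (-3.21), Chgb (-2.69) and Tbx1 (-1.96), and, with dim arrays that leave no bound, in Ryr1 (-6.29), Cdhr1 (-4.02) and Tmem45a (-3.61). The head change lay below the trunk change with a call in head in Neurod1 (-3.67), Slit3 (-3.48), Bcl11b (-3.35), Tuba4a (-1.64) and Oxct1 (-1.21). In groups of 2 arrays no test for single outlying arrays was made.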

How the results depend on the processing

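The calls depended on which arrays were used more than on the scaling. For the difference between the changes, 30 genes were called; quantile normalization gave 32 (30 of them shared), median centring 30, 16 added before log2 31, at least 4 arrays above the median 29, no filter 20, no intensity trend 17, the 8 first-day arrays alone 20 (16 shared), probe sets without the suffixes _s, _x and _a 27 (25 shared), and the probe set of highest mean over 8 arrays 30. Raising dim signals to the array median gave 31, 10 positive and 21 negative, against 4 and 26, with 16 shared. Leaving out 1 array gave 7 to 88 genes for the difference, 2 to 135 for the head change, 105 to 578 for the trunk change, 238 to 445 for head minus trunk at E9.5 and 64 to 484 at E10.5. Leaving out both E10.5 replicate 1 arrays gave 0 for the difference, 0 for the head change and 95 for the trunk change; leaving out both replicate 2 arrays, chosen after the data were seen as were both omissions for the single regions, gave 2, 70 and 184. Without the filter the head change had 49 genes. With the replicate number as a block the counts were 22 for the difference (20 shared), 56 for head and 486 for trunk. For head minus trunk they were 294 at E10.5 and 445 at E9.5. Same-numbered arrays deviated together with r of -0.30 to 0.17 over 15 pairs of groups. Such r over all genes cannot decide whether same-numbered head and trunk arrays share embryos, and the labels do not state it. Xist was low in replicate 1 of both E10.5 groups, so pairing remains unresolved. Of 3640 values of 175 single genes under the alternatives, 255 lost a call, 25 gained one and 212 uncalled values moved by over 1 standard error; of 672 list medians 56 moved by over 0.35. None of the 30 values changed sign. Arrays at signals near the median probe set and 2 arrays a group limit the precision.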
